A study of Mus musculus with 18 samples.

Results

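The 38 genes described here encode the proteins of the sarcomere and the muscle fibre, and their transcripts were followed in satellite cells sorted from uninjured and injured mouse muscle. They were chosen by name: 13 belong to the thick filament and M-band (Myh1, Myh2, Myh3, Myh4, Myh7, Myh8, Myl1, Mylpf, Myl2, Myl3, Mybpc1, Mybpc2 and Myom1), 12 to the thin filament (Acta1, Actc1, Tnnc1, Tnnc2, Tnni1, Tnni2, Tnnt1, Tnnt2, Tnnt3, Tpm1, Tpm2 and Neb), 7 to the Z-disc with titin and desmin (Actn2, Actn3, Ttn, Myoz1, Ldb3, Tcap and Des), 4 to calcium handling (Ryr1, Casq1, Atp2a1 and Pvalb) and 2 to energy and oxygen supply (Ckm and Mb). All 38 were found among the 18194 gene symbols of the arrays, through 67 of 45101 probe sets, and each gene is read through the probe set with the highest mean over 17 arrays. The question was which of these fibre transcripts can be read at all in sorted satellite cells, and whether they differed with injury, time or genotype.

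Satellite cells were sorted from the tibialis anterior by immunoreactivity to syndecan-3, either from untreated muscle or 12 h or 48 h after an injection of barium chloride, and their amplified RNA was hybridized to Affymetrix mouse genome arrays, 3 for each of the 6 groups. The wild type mice (WT) were a cross of C57Bl/6 and DBA2 and the Sdc4-/- mice carry a homozygous deletion of syndecan-4 in a C57Bl/6 background, so that genotype and strain cannot be told apart. The animals were females, 3 months old, and no statement was found on whether the arrays of a group hold separate animals, so that p-values measure the spread between these samples. The study set aside a WT uninjured array because it clustered with the injured WT arrays of the earlier time, without giving its number. Here it was taken to be WT uninjured replicate 3, the array with 4512 probe sets above a log2 value of 5 where its mates have 7620 and 7213, so that the choice rests on measured values. This leaves 2 WT uninjured arrays among 17, and the values of the array left out are given apart where they bear on a result.

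In skeletal muscle the sarcomere is the unit of contraction: myosin heads of the thick filament pull on actin of the thin filament once calcium, released through the ryanodine receptor, binds to troponin and tropomyosin moves aside. Heavy and light myosin chains, troponins and actinins exist as isoforms that mark fast, slow, embryonic and cardiac fibres. A satellite cell lies against the fibre and is a mononuclear precursor that has not built sarcomeres, and its daughters switch these genes on when they differentiate and fuse.

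All values are GCRMA log2 values, an intensity scale on which 1 unit is a doubling, and values of different probe sets are not compared with each other, because each probe set has its own brightness. No detection calls come with the arrays. As a measure of what an absent transcript reads, chosen after values were seen, 13 probe sets of 6 Y-linked genes in these female mice had a median of 2.77 over the 17 arrays, a 95th percentile of 4.19 and a highest value of 5.52. Their median was 2.56 to 2.70 in the WT uninjured arrays and 3.18 to 3.31 in the WT 12 h arrays. Hybridization controls had means of 7.86 to 8.94 in the WT uninjured arrays, 13.5 to 14.3 in the WT 12 h arrays and 8.74 to 12.5 in the other 4 groups. The WT 12 h arrays had the fewest probe sets above 5 of all 17 (3982, 2832 and 3505, against 5076 to 7864 in the other arrays fitted). Among them WT 12 h replicate 2 had the lowest count, and it had an Actb value of 3.98 (8.37 to 13.4 in the other 16 arrays). Sdc4 itself did not separate the genotypes before 48 h, with 4.08 and 5.20 in WT uninjured and 5.15, 4.07 and 3.39 in Sdc4-/- uninjured arrays, and whether its probe set lies in the deleted part of the gene is not known here. Pax7, the transcription factor that defines satellite cells, was 5.15 and 4.59 in the WT uninjured arrays and 2.38 to 2.79 in the other 15 arrays.

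Most sarcomere genes read at or near background in all groups. Of the 38 members, 20 stayed under a log2 value of 5 in each of the 17 arrays and 12 stayed under 4, while 13 passed 6 in at least 1 array and 0 stayed above 5 throughout. The median over all member values was 3.26. A group mean of at least 5 was reached by 12 members: Myh1, Myh4, Myl1, Mylpf, Myl3, Myom1, Acta1, Tnnc2, Tpm1, Tpm2, Actn3 and Mb. The slow-fibre genes Myh7, Tnnc1 and Tnni1 and the actinin gene Actn2 had highest values of 4.90, 3.98, 3.99 and 3.29, each in WT 12 h replicate 1, and the fast calcium pump Atp2a1 did not pass 2.71. The map of all members shows a few bright rows against a dim field, and within most bright rows the arrays of 1 group differ as much as the groups do.

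**Figure D1:**
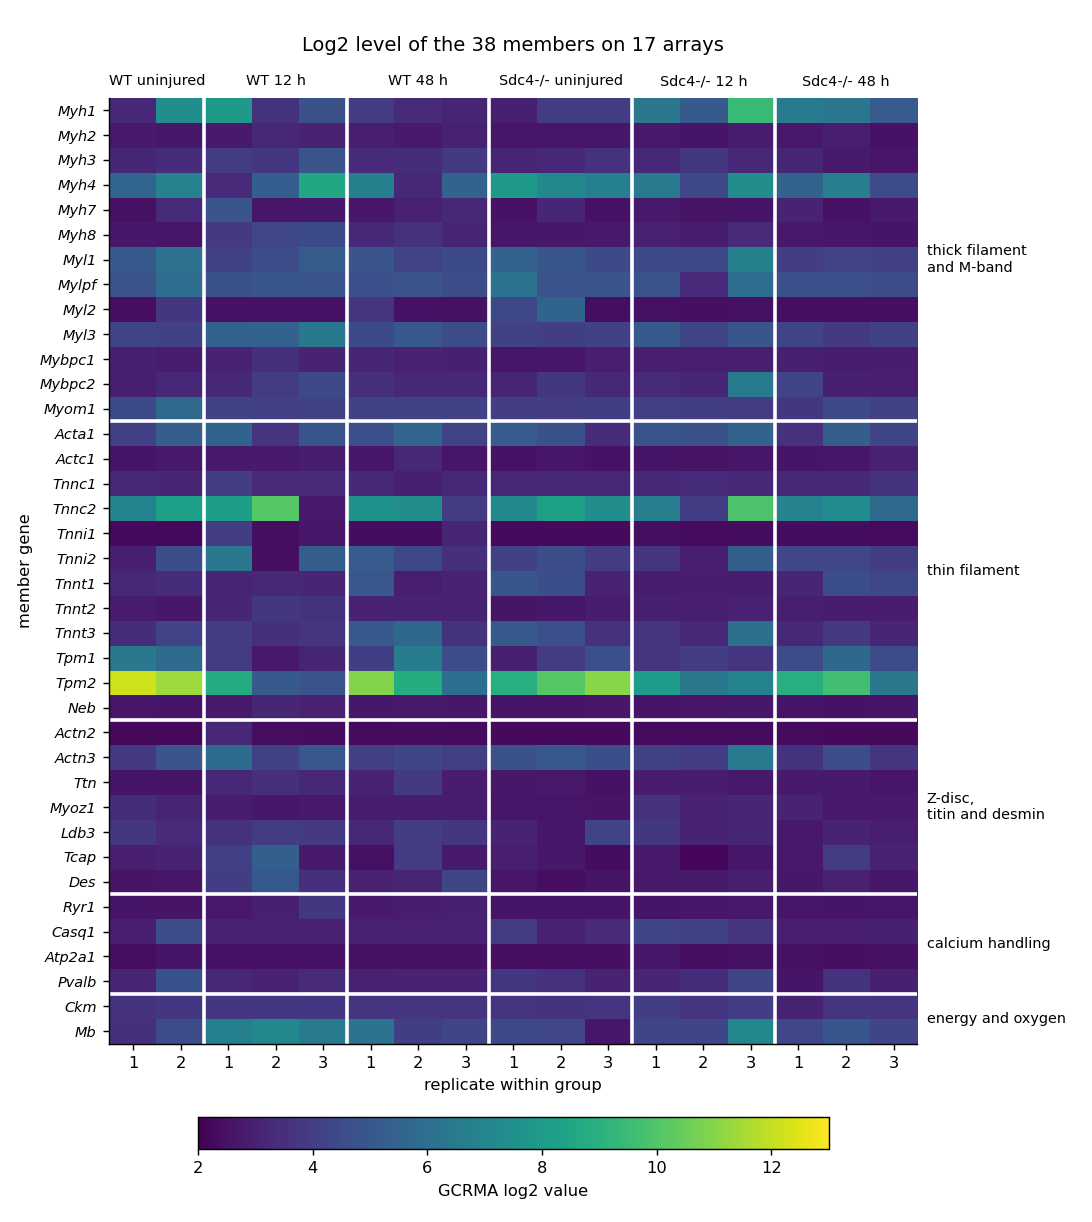
Rows are the 38 members in their roles and columns the 17 arrays in their 6 groups, with the GCRMA log2 value as colour from 2 to 13. Tpm2 is bright in most arrays and highest in the WT uninjured ones (12.22 and 11.41), Tnnc2, Myh4 and Myh1 are bright in scattered arrays, and 20 members stay under 5 throughout.

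The upstream sequences of 4 members are shown because these genes carry the largest array-to-array differences below and stand for the ways such genes are read: Myh1 and Myh4 are neighbouring fast myosin genes on chromosome 11 (gene bodies chr11:67200102-67224577 and chr11:67237812-67260447), Tnnc2 is the fast troponin C gene (chr2:164777161-164779734) and Tpm2 is a tropomyosin gene that smooth muscle uses as well (chr4:43513726-43523583). The bases stand 5′ to 3′ on the strand of the gene and end 1 base before the annotated start, from RefSeq on build GRCm38.p6. Capitals mark matches on either strand to the E-box (CANNTG), to TATAAA, to the MEF2 site and to the CArG box, and some of these overlap. The Tpm2 window is shortened to 221 bases, since the rest lies inside the annotated gene.
Myh1, plus strand, chr11:67199852-67200101: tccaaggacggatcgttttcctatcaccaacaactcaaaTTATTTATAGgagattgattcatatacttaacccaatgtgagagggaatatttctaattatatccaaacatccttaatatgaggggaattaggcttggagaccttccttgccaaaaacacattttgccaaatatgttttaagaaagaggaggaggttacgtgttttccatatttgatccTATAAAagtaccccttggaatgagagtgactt
Myh4, plus strand, chr11:67237562-67237811: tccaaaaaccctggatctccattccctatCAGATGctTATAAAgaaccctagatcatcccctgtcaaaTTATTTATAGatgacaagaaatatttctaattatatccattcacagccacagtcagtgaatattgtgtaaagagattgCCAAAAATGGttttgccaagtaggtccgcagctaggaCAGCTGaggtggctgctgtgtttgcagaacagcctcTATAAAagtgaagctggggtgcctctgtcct
Tnnc2, minus strand, chr2:164779735-164779984: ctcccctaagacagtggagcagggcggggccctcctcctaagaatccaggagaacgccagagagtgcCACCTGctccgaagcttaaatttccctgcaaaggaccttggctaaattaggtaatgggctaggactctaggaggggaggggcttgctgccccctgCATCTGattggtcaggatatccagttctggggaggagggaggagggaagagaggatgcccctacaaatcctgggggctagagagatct
Tpm2, minus strand, chr4:43523584-43523804: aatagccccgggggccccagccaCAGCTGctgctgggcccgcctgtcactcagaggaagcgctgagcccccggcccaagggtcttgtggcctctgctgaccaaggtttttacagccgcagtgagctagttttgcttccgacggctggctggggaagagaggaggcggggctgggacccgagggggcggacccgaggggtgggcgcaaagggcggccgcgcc
The Myh1 and Myh4 windows share an unbroken run of 20 bases (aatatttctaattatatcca), and each holds a MEF2 match that overlaps a TATAAA match, at base -211 of Myh1 and base -182 of Myh4 counted from the start site. Myh4 also holds 1 CArG match and 2 E-boxes, where Myh1 holds 0 of either. The Tnnc2 window holds 2 E-boxes and the Tpm2 window 1, with 0 matches to the other 3 motifs, and the Tpm2 window has a GC content of 69.7% against 36.0% for Myh1. Among all 32851 promoter windows of 250 bases, 66.2% hold an E-box, 12.4% TATAAA, 2.92% a MEF2 match and 1.47% a CArG match. Of the 40 windows found for 32 members, 82.5%, 20.0%, 12.5% and 17.5% do. A match is a string of letters, not a bound site.

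In the thick filament the fast myosin heavy chains varied from array to array without a common order of groups. Myh4, the IIb myosin of the fastest fibres, had values of 5.59 and 6.89 in WT uninjured arrays, 3.33, 5.27 and 8.55 in WT 12 h arrays, 6.77, 3.27 and 5.49 in WT 48 h arrays, 7.91, 7.14 and 6.73 in Sdc4-/- uninjured arrays, 6.59, 4.38 and 7.43 in Sdc4-/- 12 h arrays and 5.50, 6.71 and 4.50 in Sdc4-/- 48 h arrays. The highest and the lowest values come from WT 12 h replicate 3 and WT 48 h replicate 2, and the Sdc4-/- uninjured arrays form the tightest group and lie above the Sdc4-/- 48 h arrays. Myh4 passed 5 in 13 of 17 arrays, and its log2 changes lay between -1.69 and 1.02 over the 5 comparisons of 2 groups, with adjusted p of at least 0.66. The within-group SD was 1.63 against an SD of 0.72 between the 6 group means.

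Myh1, the IIx myosin, had values of 3.25 and 7.40 in WT uninjured arrays, 7.89, 3.63 and 4.73 in WT 12 h arrays, 3.90, 3.33 and 3.13 in WT 48 h arrays, 2.96, 3.95 and 3.96 in Sdc4-/- uninjured arrays, 6.36, 5.12 and 9.42 in Sdc4-/- 12 h arrays and 6.57, 6.32 and 5.14 in Sdc4-/- 48 h arrays. The values fall apart within the groups: WT uninjured replicate 2 and WT 12 h replicate 1 stand at over 7 beside mates under 5, while Sdc4-/- 12 h replicate 3 is the highest of all. The 3 Sdc4-/- uninjured arrays lie below all 6 Sdc4-/- arrays after injury, but the changes of 3.34 (standard error 1.29, adjusted p = 0.167) at 12 h and 2.39 (standard error 1.29, adjusted p = 0.462) at 48 h did not pass the test. A second probe set of Myh1 followed the first over the 17 arrays (r = 0.94, a description), ranging from 2.47 to 8.75, whereas the third stayed between 2.45 and 2.99. Myh1 and Myh4 did not go together (r = 0.02 over 17 arrays), and since the myosin genes of this cluster are close to each other in sequence, signal on probes that they may share is uncertain. Myh2, the IIa myosin of fast oxidative fibres, stayed between 2.53 and 3.24.

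Myh8, the perinatal myosin, had values of 2.69 and 2.66 in WT uninjured arrays, 3.81, 4.34 and 4.47 in WT 12 h arrays, 3.29, 3.59 and 3.15 in WT 48 h arrays, 2.66, 2.71 and 2.75 in Sdc4-/- uninjured arrays, 2.99, 2.89 and 3.35 in Sdc4-/- 12 h arrays and 2.77, 2.68 and 2.63 in Sdc4-/- 48 h arrays. All WT 12 h arrays lie above all WT uninjured arrays, and all values are in the range where Y-linked probe sets also read. In bulk samples such as these, a shift in the share of a cell type and a shift in RNA per cell cannot be told apart, here and below. The log2 change at 12 h in WT cells was 1.53 (standard error 0.19, adjusted p = 8.81e-05), a 2.89-fold rise, and at 48 h 0.67 (standard error 0.19, adjusted p = 0.0356). The left-out WT uninjured replicate 3 read 3.59, inside the WT 48 h range, and with all 18 arrays the changes were 1.22 (adjusted p = 0.00442) and 0.36 (adjusted p = 0.502). Without WT uninjured replicate 1 or 2 the 48 h change kept its size (0.68 and 0.65) but not its call (adjusted p of 0.147 and 0.147). Myh3, the embryonic myosin, rose by 0.91 at 12 h (adjusted p = 0.0414) to a mean of 4.20. The left-out array read 3.88 for Myh3, and with all 18 arrays the change was 0.71 (adjusted p = 0.104). Myh7, the slow and cardiac myosin, passed 4 only in WT 12 h replicate 1.

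Among the light chains, Myl3 of slow fibres and heart had values of 4.21 and 4.15 in WT uninjured arrays, 5.41, 5.47 and 6.46 in WT 12 h arrays, 4.48, 4.98 and 4.55 in WT 48 h arrays, 4.13, 4.03 and 4.18 in Sdc4-/- uninjured arrays, 5.10, 4.30 and 4.90 in Sdc4-/- 12 h arrays and 4.19, 3.82 and 4.18 in Sdc4-/- 48 h arrays. The WT 12 h arrays are the highest of all 17 and do not overlap with any other group. Myl3 rose by 1.60 on the log2 scale at 12 h in WT cells (standard error 0.30, adjusted p = 0.00159), from 4.18 ± 0.04 (SD, n = 2) to 5.78 ± 0.59 (SD, n = 3). The left-out WT uninjured replicate 3 read 4.57, and with all 18 arrays the change was 1.47 (adjusted p = 0.00379). With only the groups compared the call was lost (adjusted p = 0.0659). A second Myl3 probe set read 2.44 and 2.86 in WT uninjured and 4.81, 5.24 and 5.34 in WT 12 h arrays, and 4.47 in the left-out array.

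Myl1, the fast alkali light chain, had values of 5.08 and 6.14 in WT uninjured arrays, 4.14, 4.51 and 5.25 in WT 12 h arrays, 4.91, 4.24 and 4.47 in WT 48 h arrays, 5.45, 4.96 and 4.41 in Sdc4-/- uninjured arrays, 4.45, 4.37 and 6.85 in Sdc4-/- 12 h arrays and 4.00, 4.20 and 4.07 in Sdc4-/- 48 h arrays. Mylpf, the fast regulatory light chain that is phosphorylated, had values of 4.83 and 5.92 in WT uninjured arrays, 4.72, 4.92 and 4.91 in WT 12 h arrays, 4.70, 4.83 and 4.60 in WT 48 h arrays, 6.20, 4.83 and 4.90 in Sdc4-/- uninjured arrays, 4.82, 3.30 and 5.98 in Sdc4-/- 12 h arrays and 4.69, 4.68 and 4.62 in Sdc4-/- 48 h arrays. In both genes WT uninjured replicate 2 and Sdc4-/- 12 h replicate 3 are among the 3 highest arrays, the 48 h arrays lie below the uninjured arrays of their genotype (in WT Mylpf by less than the decimals shown), and 0 of the 7 comparisons passed the test. Myl2, the slow and ventricular regulatory chain, passed 5 only in Sdc4-/- uninjured replicate 2 (5.53) and was otherwise highest in Sdc4-/- uninjured replicate 1 (4.39).

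Myom1, which encodes myomesin and crosslinks thick filaments at the M-band, had values of 4.48 and 5.82 in WT uninjured arrays, 4.14, 4.07 and 4.17 in WT 12 h arrays, 4.12, 4.12 and 4.17 in WT 48 h arrays, 4.01, 3.98 and 4.06 in Sdc4-/- uninjured arrays, 4.10, 4.02 and 3.94 in Sdc4-/- 12 h arrays and 3.77, 4.44 and 4.14 in Sdc4-/- 48 h arrays. Among the arrays fitted WT uninjured replicate 2 is the highest and the other 16 lie between 3.77 and 4.48, and the left-out WT uninjured replicate 3 read 5.02. Myom1 was called lower than WT uninjured in 3 comparisons, by -1.02 (standard error 0.28, adjusted p = 0.0144) in WT 12 h, -1.01 (standard error 0.28, adjusted p = 0.036) in WT 48 h and -1.13 (standard error 0.28, adjusted p = 0.0466) in Sdc4-/- uninjured cells. Without WT uninjured replicate 2 these changes were -0.35, -0.34 and -0.46, with adjusted p of 0.177, 0.323 and 0.274. With all 18 arrays they were -0.98, -0.97 and -1.09, with adjusted p of 0.016, 0.0984 and 0.0586. Mybpc2, the fast myosin-binding protein C, passed 5 only in Sdc4-/- 12 h replicate 3 (6.59, against 3.33 and 3.17 in its mates), and Mybpc1, the slow form, stayed between 2.65 and 3.54.

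In the thin filament Tpm2 fell at 12 h in WT cells, and Tpm1 fell in the probe set chosen but not in the mean over its probe sets. Tpm2, the beta tropomyosin of slow fibres and of smooth muscle, had values of 12.22 and 11.41 in WT uninjured arrays, 8.78, 5.13 and 4.88 in WT 12 h arrays, 10.95, 8.81 and 6.03 in WT 48 h arrays, 8.95, 10.09 and 11.05 in Sdc4-/- uninjured arrays, 8.02, 6.41 and 6.92 in Sdc4-/- 12 h arrays and 8.93, 9.65 and 6.34 in Sdc4-/- 48 h arrays. The WT uninjured arrays are the highest of the 17 and the spread inside the later groups is wide, with WT 12 h replicate 1 well above its mates. The log2 change at 12 h was -5.55 (standard error 1.47, adjusted p = 0.0115), a 46.9-fold fall from 11.81 ± 0.58 (SD, n = 2) to 6.26 ± 2.18 (SD, n = 3).

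The changes of Tpm2 in the other comparisons did not pass the test: -3.22 (standard error 1.47, adjusted p = 0.178) in WT 48 h cells, -2.91 (standard error 1.31, adjusted p = 0.244) in Sdc4-/- 12 h cells, -1.72 (standard error 1.31, adjusted p = 0.694) in Sdc4-/- 48 h cells and -1.79 (standard error 1.47, adjusted p = 0.772) between the uninjured genotypes. The left-out WT uninjured replicate 3 read 4.79, below all 17 arrays, and with it the 12 h change was -3.21 (adjusted p = 0.212). Without WT uninjured replicate 1 it was -5.15 (adjusted p = 0.0778). A second Tpm2 probe set moved with the first (r = 0.94 over 17 arrays), with 8.23 and 7.67 in WT uninjured and 4.97, 3.46 and 4.09 in WT 12 h arrays, and the 2 others stayed between 2.71 and 5.29.

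Tpm1, the alpha tropomyosin of fast fibres, heart and many other cells, had values of 6.38 and 5.82 in WT uninjured arrays, 3.96, 2.76 and 3.16 in WT 12 h arrays, 4.03, 6.66 and 4.62 in WT 48 h arrays, 2.98, 3.96 and 4.70 in Sdc4-/- uninjured arrays, 3.72, 4.01 and 3.66 in Sdc4-/- 12 h arrays and 4.50, 5.73 and 4.54 in Sdc4-/- 48 h arrays. WT 48 h replicate 2 and both WT uninjured arrays are the highest, and the WT 12 h arrays do not overlap with the WT uninjured ones. The 12 h change in WT cells was -2.80 (standard error 0.70, adjusted p = 0.0087), a 6.99-fold fall. The probe sets of Tpm1 disagree: a second one read 2.39 and 3.47 in WT uninjured and 3.64, 4.69 and 5.20 in WT 12 h arrays, and the mean over all 4 changed by -0.16 (adjusted p = 0.671). The left-out array read 3.09, and with it the change was -1.80 (adjusted p = 0.13), while without WT uninjured replicate 1 it was -2.52 (adjusted p = 0.071).

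Tnnc2, the calcium sensor of fast troponin, had values of 6.94 and 8.19 in WT uninjured arrays, 8.15, 10.12 and 2.74 in WT 12 h arrays, 7.60, 7.45 and 3.91 in WT 48 h arrays, 7.22, 8.26 and 7.40 in Sdc4-/- uninjured arrays, 6.68, 4.00 and 9.91 in Sdc4-/- 12 h arrays and 6.87, 7.31 and 5.81 in Sdc4-/- 48 h arrays. Both the highest value (10.12, WT 12 h replicate 2) and the lowest (2.74, WT 12 h replicate 3) belong to the same group. Tnnc2 passed 5 in 14 of 17 arrays, its within-group SD was 2.29 against an SD of 0.51 between group means, and its changes between -1.24 and 0.06 had adjusted p of at least 0.72. Acta1, the skeletal alpha actin, had values of 4.10 and 5.32 in WT uninjured arrays, 5.55, 3.67 and 4.84 in WT 12 h arrays, 4.70, 5.59 and 4.27 in WT 48 h arrays, 5.16, 4.71 and 3.43 in Sdc4-/- uninjured arrays, 4.83, 4.74 and 5.48 in Sdc4-/- 12 h arrays and 3.56, 5.35 and 4.31 in Sdc4-/- 48 h arrays. Values above 5 occur in 1 array of each of the 6 groups, and no comparison passed the test.

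The other thin-filament members gave a few single-array values. Tnni2, the fast inhibitory troponin, ranged from 2.44 to 6.32 and was highest in WT 12 h replicate 1, and Tnnt3, the fast troponin T, ranged from 3.20 to 6.07 and was highest in Sdc4-/- 12 h replicate 3. The 3 probe sets of Tnni2 did not agree, another reading 6.53 in WT 12 h replicate 2, where the chosen one read 2.44. Tnnt2, the cardiac and embryonic troponin T, rose by 0.75 at 12 h in WT cells (adjusted p = 0.00119) to a mean of 3.51, and Neb, which encodes nebulin along the actin filament, by 0.37 (adjusted p = 0.00952) to 2.99. Actc1, Tnnc1, Tnni1 and Tnnt1 were not called in any of the 7 comparisons, and Actc1, the cardiac alpha actin, stayed between 2.52 and 3.26.

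At the Z-disc, Actn3, the alpha actinin of fast fibres, had values of 3.88 and 4.91 in WT uninjured arrays, 5.89, 4.15 and 4.98 in WT 12 h arrays, 4.07, 4.29 and 4.07 in WT 48 h arrays, 4.71, 5.03 and 4.65 in Sdc4-/- uninjured arrays, 4.16, 3.95 and 6.54 in Sdc4-/- 12 h arrays and 3.62, 4.58 and 3.66 in Sdc4-/- 48 h arrays. Sdc4-/- 12 h replicate 3 is the highest array, WT 12 h replicate 1 the next. The Sdc4-/- 48 h arrays lie below the Sdc4-/- uninjured ones, and each other injured group overlaps with the uninjured arrays of its genotype. No comparison of Actn3 passed the test. Actn2, the actinin of all sarcomeres, passed 3 only in WT 12 h replicate 1 (3.29).

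Myoz1, which encodes the calcineurin-binding protein calsarcin-2 of fast fibres, had values of 3.44 and 3.15 in WT uninjured arrays, 2.84, 2.72 and 2.82 in WT 12 h arrays, 2.82, 2.84 and 2.83 in WT 48 h arrays, 2.68, 2.65 and 2.58 in Sdc4-/- uninjured arrays, 3.58, 3.07 and 3.18 in Sdc4-/- 12 h arrays and 3.08, 2.76 and 2.74 in Sdc4-/- 48 h arrays. The WT uninjured arrays lie above all other WT arrays and the Sdc4-/- 12 h arrays above all Sdc4-/- uninjured arrays, but all values lie between 2.58 and 3.58, near background. In WT cells the change at 12 h was -0.50 (standard error 0.15, adjusted p = 0.018), in Sdc4-/- cells 0.64 (standard error 0.13, adjusted p = 0.0111), and between the uninjured genotypes -0.66 (standard error 0.15, adjusted p = 0.0256). The difference between the 12 h changes, 1.15 (standard error 0.20, adjusted p = 0.00393), passed the test. Without WT uninjured replicate 1 the WT change was -0.36 (adjusted p = 0.168) and the difference between uninjured genotypes -0.51 (adjusted p = 0.265). The left-out array read 2.84, and with all 18 arrays these values were -0.35 (adjusted p = 0.114) and -0.51 (adjusted p = 0.171). A second Myoz1 probe set read 2.58 and 2.48 in WT uninjured and 3.82, 3.07 and 3.11 in WT 12 h arrays, and the mean of both probe sets changed by 0.15 at 12 h in WT cells (adjusted p = 0.518) and differed in that change between genotypes by 0.44 (adjusted p = 0.247). For the uninjured genotypes this mean differed by -0.29 (adjusted p = 0.53).

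Des, the desmin intermediate filament that satellite cells and smooth muscle also make, had values of 2.60 and 2.69 in WT uninjured arrays, 3.99, 5.02 and 3.46 in WT 12 h arrays, 3.01, 3.14 and 4.31 in WT 48 h arrays, 2.67, 2.43 and 2.60 in Sdc4-/- uninjured arrays, 2.76, 2.79 and 2.93 in Sdc4-/- 12 h arrays and 2.71, 3.03 and 2.72 in Sdc4-/- 48 h arrays. The WT 12 h arrays lie above the WT uninjured ones, with replicate 2 the highest, and overlap with the WT 48 h arrays. The change was 1.51 (standard error 0.41, adjusted p = 0.0126), a 2.85-fold rise that ends at a mean of 4.16, while the second Des probe set stayed between 2.36 and 2.56. The call was lost without WT uninjured replicate 1 or 2 (1.47 and 1.55, adjusted p = 0.0721 and 0.0569), after a further quantile normalization (2.08, adjusted p = 0.0682) and with only the groups compared (adjusted p = 0.121). Ttn, the giant spring between Z-disc and M-band, rose by 0.71 (adjusted p = 0.022) to 3.33, and Tcap, which caps titin at the Z-disc, and Ldb3 were not called. Tcap passed 5 only in WT 12 h replicate 2 (5.32).

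Of the calcium-handling genes, Ryr1, the release channel, rose by 0.57 at 12 h in WT cells (adjusted p = 0.0488) to a mean of 3.17, a value at background, and was not called elsewhere. Casq1, the calcium store protein of fast fibres, ranged from 2.94 to 4.62, and Pvalb, the calcium buffer of the fastest fibres, from 2.64 to 4.79. Both were highest in WT uninjured replicate 2. Ckm, the muscle creatine kinase, ranged from 3.06 to 4.02 and was not called.

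Mb, the oxygen store myoglobin, had values of 3.51 and 4.58 in WT uninjured arrays, 6.76, 7.15 and 6.52 in WT 12 h arrays, 6.20, 4.05 and 4.32 in WT 48 h arrays, 4.44, 4.34 and 2.68 in Sdc4-/- uninjured arrays, 4.30, 4.30 and 7.10 in Sdc4-/- 12 h arrays and 4.35, 4.94 and 4.31 in Sdc4-/- 48 h arrays. The WT 12 h arrays lie above both WT uninjured arrays, and the only other values above 5 are WT 48 h replicate 1 and Sdc4-/- 12 h replicate 3. The rise of 2.76 (standard error 0.87, adjusted p = 0.0254), 6.79-fold, went from 4.04 ± 0.75 (SD, n = 2) to 6.81 ± 0.32 (SD, n = 3). A second Mb probe set passed 3 only in WT 12 h replicates 2 and 3 (5.01 and 5.27). The left-out WT uninjured replicate 3 read 5.45, and with it the change was 2.29 (adjusted p = 0.0559), while without WT uninjured replicate 1 or 2 it was 2.23 and 3.30 (adjusted p = 0.168 and 0.0519). The change of 1.41 in Sdc4-/- 12 h cells (adjusted p = 0.337) stands beside 1 high array, replicate 3, and the difference between the 12 h changes was -1.35 (standard error 1.16, adjusted p = 0.466).

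**Figure D2:**
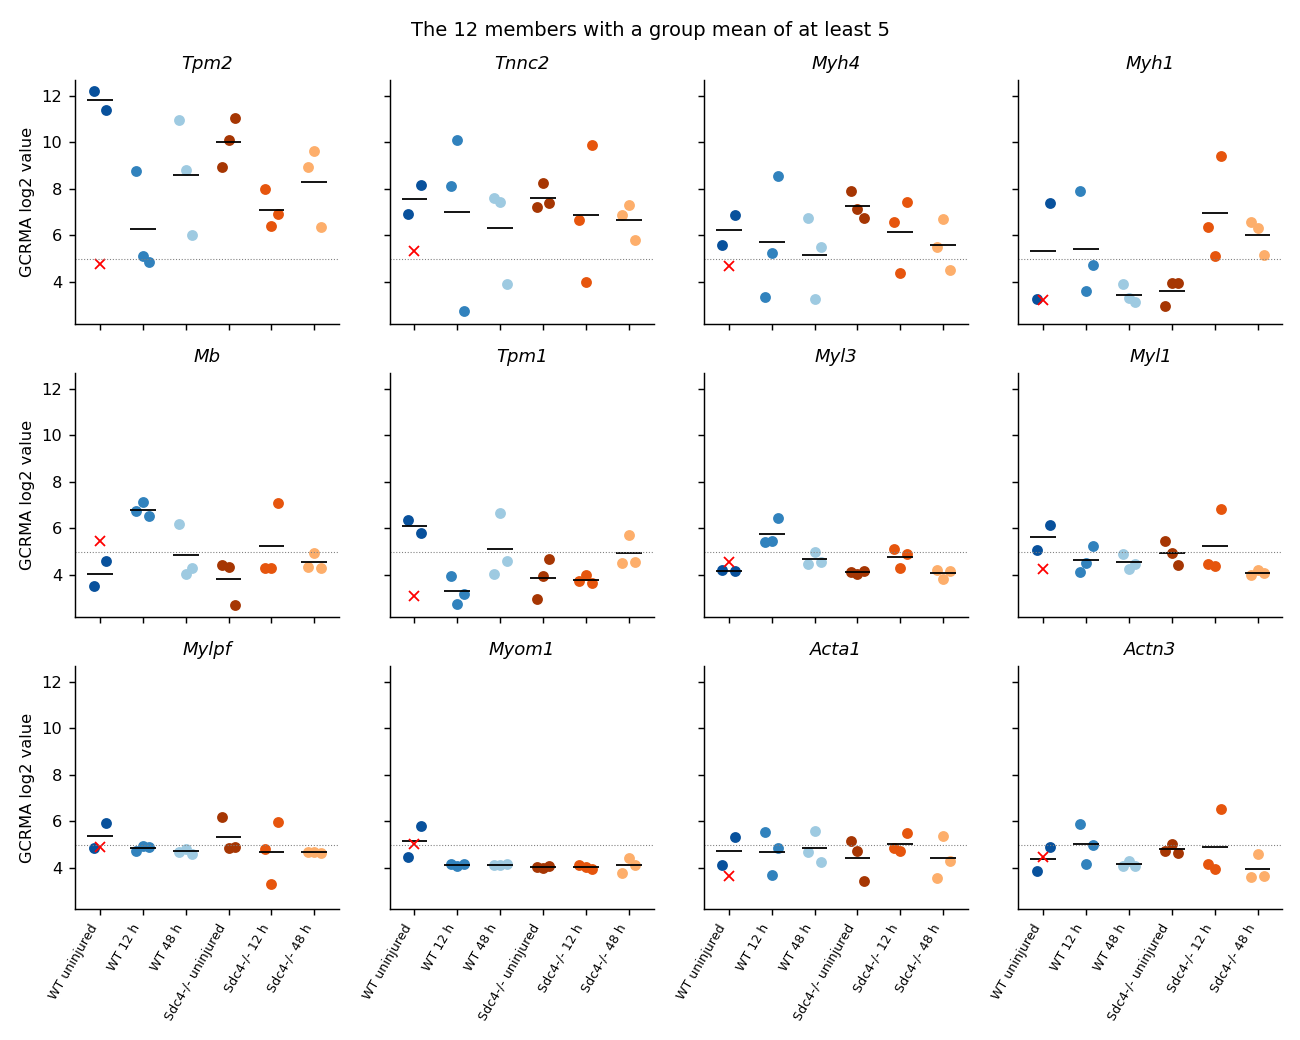
Each panel plots the GCRMA log2 value of 1 of the 12 members with a group mean of at least 5, each point 1 array, the line the group mean over the arrays fitted, the red cross the left-out WT uninjured replicate 3 and the dotted line a value of 5. The WT 12 h values of Myl3 and Mb sit above both fitted WT uninjured arrays, those of Tpm2 and Tpm1 below, and Tnnc2 spans 2.74 to 10.12 within the WT 12 h group.

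Across the 38 members, 9 were higher and 4 lower in WT 12 h than in WT uninjured cells by limma at an adjusted p under 0.05 (16 at an unadjusted p under 0.05). Over all 18194 genes 19.6% were called higher and 20.8% lower, beside 23.7% and 10.5% of the members. The genes called higher were Myh3, Myh8, Myl3, Tnnt2, Neb, Ttn, Des, Ryr1 and Mb, and those called lower Myom1, Tpm1, Tpm2 and Myoz1. Of the 9, 7 had a WT 12 h mean under 5, with Myl3 and Mb the exceptions. The median change was 0.26 over the members and 0.09 over all genes.

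The Y-linked probe sets moved the same way: 10 of 13 were called higher in the WT 12 h arrays and 0 lower, with a median change of 0.52 and a range of 0.20 to 1.20. The rises of Neb, Ryr1, Ttn, Tnnt2 and Myh3 (0.37 to 0.91) lie inside that range, and those of Des, Myh8, Myl3 and Mb (1.51 to 2.76) above it. The part of this shift and of the brighter hybridization controls in the members' changes was not tested. Without WT 12 h replicate 2 the counts were again 9 and 4, without Ttn and Mb among the called genes (adjusted p = 0.0612 and 0.0622). Without WT uninjured replicate 1 the counts were 4 and 3, without replicate 2 they were 3 and 3, and with all 18 arrays 4 and 1. With all 18 arrays Myh3, Neb, Ttn, Ryr1 and Mb were not called (adjusted p of 0.104, 0.102, 0.056, 0.168 and 0.0559). After a further quantile normalization Myh3, Neb, Ttn, Ryr1 and Des were not called. When each array was shifted to the same 75th percentile, which adds 0.21 to each member's change, 14 were higher and 3 lower.

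**Figure D3:**
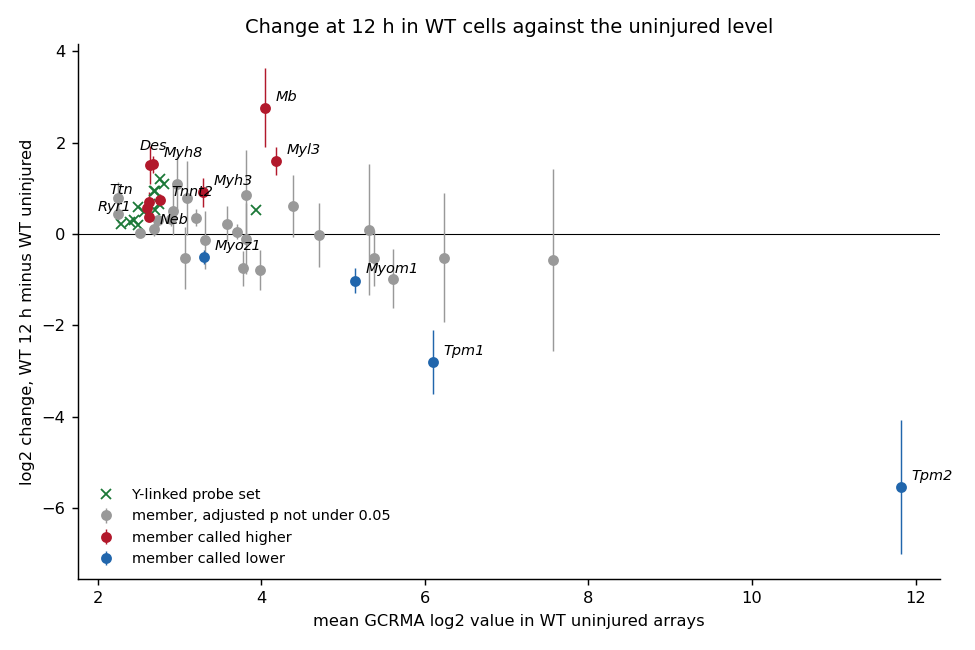
Points are the 38 members, with the mean log2 value in WT uninjured arrays on the horizontal axis, the log2 change at 12 h in WT cells on the vertical axis and its standard error as bars, in red and blue where the adjusted p is under 0.05, and crosses are the 13 Y-linked probe sets. The red points of Neb, Ryr1, Ttn, Tnnt2 and Myh3 lie within the span of the crosses, Mb (2.76) and Myl3 (1.60) start near 4, and Tpm2 lies alone at -5.55.

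At 48 h in WT cells 1 member was higher (Myh8, with 5.47% of all genes higher) and 1 lower (Myom1, with 9.39% of all genes lower), and 6 differed at an unadjusted p under 0.05. This comparison and the one at 12 h share their uninjured arrays. The median change was 0.10 over the members and 0.10 over all genes. Shifting the arrays to the same 75th percentile, which adds 0.32 to each change, gave 11 higher and 0 lower, and a further quantile normalization gave 0.

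In Sdc4-/- cells at 12 h only Myoz1 was called, higher by 0.64, where 1.48% of all genes were higher, and 0 of 38 members were lower against 7.23%. At an unadjusted p under 0.05, 7 members differed. With the shift to the same 75th percentile, which adds 0.34, 11 members were higher. At 48 h limma called 0 members in either direction, with 2.65% of all genes higher and 2.59% lower, and 1 member had an unadjusted p under 0.05. The moderated fit with trend and robust and the plain analysis of variance called 0 as well. The median member change was 0.08 at 12 h and -0.00 at 48 h, beside 0.04 and 0.02 over all genes.

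Between the uninjured genotypes 0 members were higher in Sdc4-/- cells (1.32% of all genes) and 2 lower, Myom1 and Myoz1 (2.96% of all genes), with 3 at an unadjusted p under 0.05. The difference of Tpm1, -2.22 (standard error 0.70, adjusted p = 0.13), did not pass the test. Strain went with genotype, and the uninjured arrays of the genotypes were scanned on different days. Strain and scan day therefore cannot be told apart from genotype here. Genes listed below as cell-type markers also differed. In Sdc4-/- uninjured cells 2 of 12 macrophage and 1 of 10 neutrophil genes were higher and 0 lower. The median difference of the macrophage genes was 3.06, with mean levels of 9.53 to 10.1 in Sdc4-/- uninjured and 5.45 to 8.63 in WT uninjured arrays. Of 14 smooth muscle and pericyte genes 3 were lower and 0 higher, with a median difference of -1.85. Of 12 satellite cell, 11 fibroblast and 12 endothelial genes, 3, 1 and 1 were lower and 0 higher. Of 6 Schwann cell genes 1 was higher and 1 lower, and of 5 erythroid genes 0 were called. The part of such cells in the members' genotype differences was not tested.

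The 12 h change differed between genotypes for 2 members, with Myoz1 higher in Sdc4-/- cells (1.15, where 6.32% of all genes were higher) and Myh8 lower, where 5.7% were lower. The difference of Myh8 was -1.16 (standard error 0.25, adjusted p = 0.0115). At an unadjusted p under 0.05 there were 9. Myl3 was not called in this fit. With the mean of its probe sets it differed by -1.21 (adjusted p = 0.00839), and after a further quantile normalization by -2.35 (adjusted p = 0.0167). The Y-linked probe sets differed too, 4 of 13 called lower and 0 higher with a median of -0.40, and their part in the Myh8 difference was not tested. The 48 h change differed for 0 members in limma, where 3.64% of all genes were higher and 1.03% lower, with 4 at an unadjusted p under 0.05, and the trend and robust fit and the plain analysis of variance also gave 0. Myh1 differed by 4.26 (standard error 1.93, adjusted p = 0.27), which did not pass the test.

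The Tpm2 values ran with those of several smooth muscle and pericyte genes. Among all gene symbols the one whose values were most like those of Tpm2 over the 17 arrays was Acta2, the smooth muscle actin (r = 0.89, rho = 0.91), followed by Ltbp3, Fkbp9, Cfl2 and Dag1 (r = 0.87, 0.86, 0.86 and 0.83). Acta2 was chosen by this likeness, so that r is a description without a test. It was 0.85 without the 2 arrays farthest from the median of Acta2, and 0.75 between deviations from the group means. Over the smooth muscle and pericyte list r with Tpm2 ran from -0.50 for Actg2 and -0.48 for Cnn1, both under 4 in all arrays, to 0.75 for Notch3 and that of Acta2. Acta2 values were 10.26 and 9.92 in WT uninjured arrays, 6.26, 3.17 and 2.68 in WT 12 h arrays, 8.73, 5.94 and 3.91 in WT 48 h arrays, 7.45, 7.38 and 8.88 in Sdc4-/- uninjured arrays, 7.16, 5.68 and 3.66 in Sdc4-/- 12 h arrays and 4.04, 7.93 and 6.08 in Sdc4-/- 48 h arrays, and 2.60 in the left-out array.

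Of the 14 smooth muscle and pericyte genes listed for comparison, all measured, 8 were lower in WT 12 h than in WT uninjured cells and 0 higher, among them Notch3 with -4.32 (standard error 0.60, adjusted p = 0.000215), Kcnj8 with -5.45 (standard error 0.84, adjusted p = 0.000435), Pdgfrb with -4.14 (standard error 0.74, adjusted p = 0.00115) and Myl9, a smooth muscle myosin light chain, with -4.08 (standard error 0.76, adjusted p = 0.00151). Over all genes 20.8% were lower and 19.6% higher. The mean level of the list was 6.00 to 6.56 in WT uninjured arrays, 3.82 to 4.18 in WT 12 h, 3.53 to 4.13 in WT 48 h, 4.12 to 5.65 in Sdc4-/- uninjured, 3.52 to 3.83 in Sdc4-/- 12 h and 3.44 to 4.52 in Sdc4-/- 48 h arrays, and 3.17 in the left-out array. Myh11, the smooth muscle myosin, read 6.61 and 6.33 in WT uninjured arrays and 2.89 to 5.31 in the others, while Actg2, Mcam, Smtn, Cnn1 and Lmod1 stayed under 4.29. The correlation with the mean of this list was 0.78 for Tpm2, 0.63 for Myom1, 0.52 for Tpm1 and between -0.41 and 0.26 for the other 9 members that reach a group mean of 5. Without the 2 arrays farthest from the median of the list it was 0.68 for Tpm2, 0.23 for Myom1 and 0.13 for Tpm1. Between deviations from the group means it was 0.65 for Tpm2, 0.02 for Myom1 and 0.53 for Tpm1. The value of Myom1 was thus lower both ways, whereas that of Tpm1 was lower without the 2 arrays and kept its size between deviations. The part of such cells in the Tpm2 change was not tested.

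**Figure D4:**
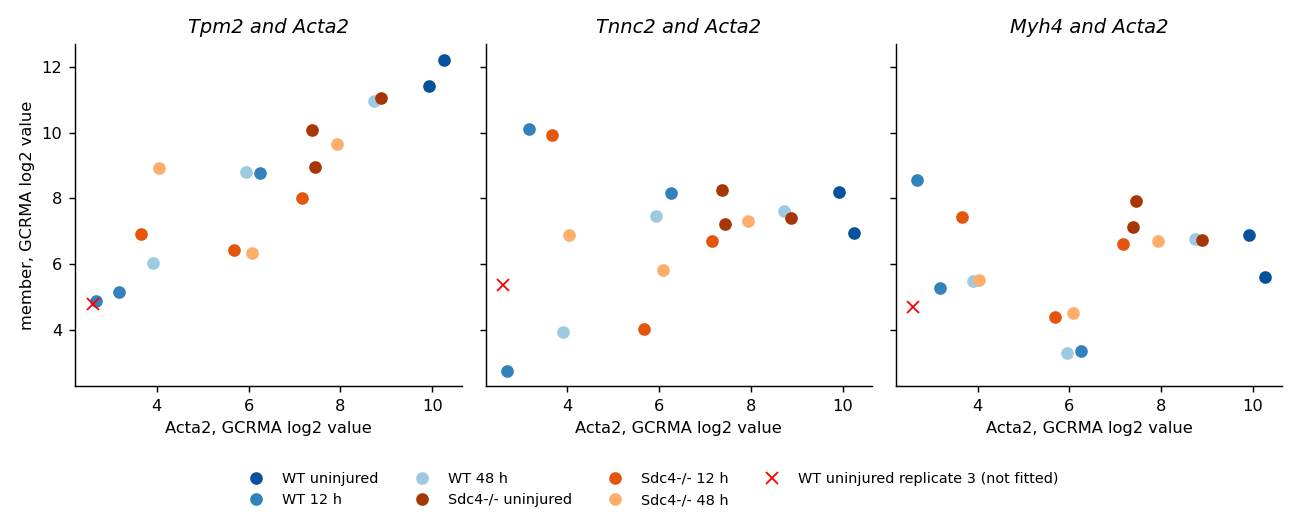
Each point is 1 array, with the GCRMA log2 value of Acta2 on the horizontal axis and that of Tpm2, Tnnc2 or Myh4 on the vertical axis, coloured by group, and the red cross is the left-out WT uninjured replicate 3. Tpm2 climbs with Acta2 (r = 0.89), whereas Tnnc2 (r = 0.22) and Myh4 (r = 0.08) show no such run.

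Of the 38 members, 5, 8 and 5 were highest in WT 12 h replicates 1, 2 and 3 and 5 in Sdc4-/- 12 h replicate 3. The same counts over all genes were not made, so that these are not read as a trait of the members. Y-linked medians were also highest in the WT 12 h arrays (3.18 to 3.31, against 2.55 to 2.90 in the other arrays fitted). The part of this background in the counts was not tested. In Sdc4-/- 12 h replicate 3, 12 members passed 5, against 5 and 2 in its mates, and it was among the 3 highest arrays for 8 of the 12 members with a group mean of 5. It read 9.42 for Myh1, 9.91 for Tnnc2, 7.43 for Myh4, 7.10 for Mb, 6.85 for Myl1, 6.59 for Mybpc2, 6.54 for Actn3 and 6.07 for Tnnt3. WT uninjured replicate 2 was among the 3 highest for 6 and WT 12 h replicate 1 for 5 of these 12 members. Over the 17 arrays the members did not form 1 pattern: Myl1 went with Mylpf (r = 0.72), Actn3 (0.62) and Myh4 (0.61), and Actn3 with Myh1 (0.59) and Acta1 (0.59), Myl3 went with Mb (0.64) and Tpm1 with Tpm2 (0.57), while Tnnc2 had r between -0.17 and 0.50 with the other 11. These are descriptions over arrays that share groups.

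The share of members above 5 ranged from 5.26% to 31.6% by array, beside 9.13% to 27.2% of all genes. In the WT 12 h arrays 13.2% to 21.1% of members passed 5 beside 9.13% to 12.9% of all genes, and in Sdc4-/- 12 h replicate 3 31.6% beside 18.8%, whereas in the other 13 arrays the members' share was under that of all genes. As these shares depend on the brightness of the probe sets chosen, they are a description.

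**Figure D5:**
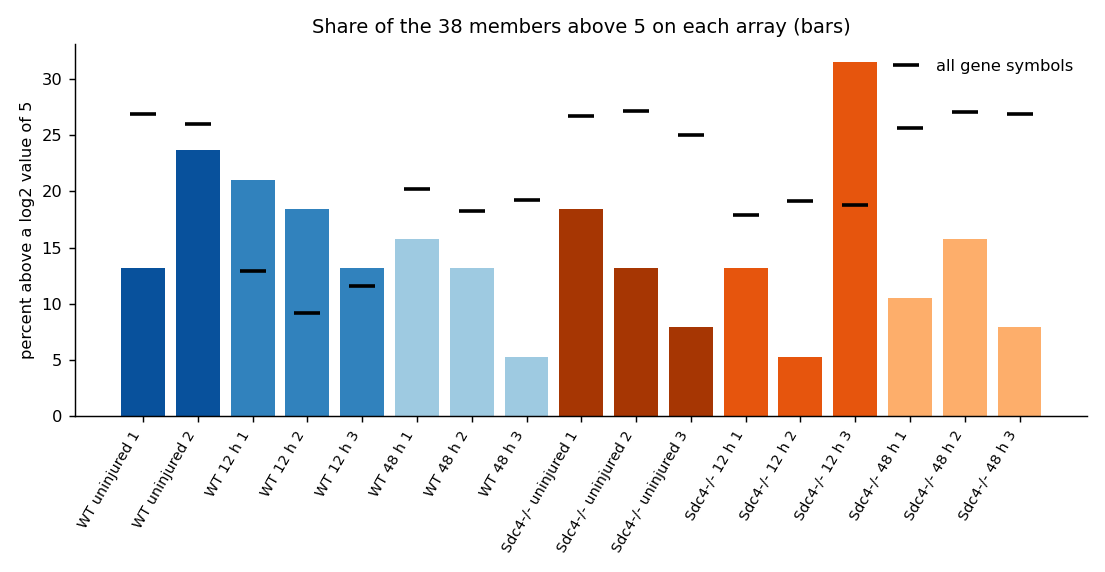
Bars give the percent of the 38 members above a log2 value of 5 on each of the 17 arrays, coloured by group, and black marks give the same for all 18194 gene symbols. The bar passes its mark in the 3 WT 12 h arrays, where the mark is lower than in the WT uninjured arrays while the bars overlap with theirs. It also passes its mark in Sdc4-/- 12 h replicate 3 (31.6% against 18.8%).

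Other genes of the fibre, from lists written with earlier results known, were counted in the same comparisons. Over all genes 19.6% were called higher and 20.8% lower in WT 12 h cells, the shares to set beside the counts of each list. Of 33 measured sarcomere and Z-disc genes beyond the 38, 22 stayed under 5 in all arrays, and 7 were higher and 2 lower in WT 12 h cells, among them Trim63, a ubiquitin ligase of the sarcomere, with 0.83 (standard error 0.17, adjusted p = 0.00225), Smpx with 0.79 (adjusted p = 0.00358), Myoz3 with 0.89 (adjusted p = 0.00738) and Pdlim5 with -3.57 (adjusted p = 0.0053). Of 20 calcium-handling genes, 5 were higher and 4 lower. Pln, which encodes phospholamban, and Casq2, the slow and cardiac calsequestrin, fell by 3.55 and 3.75 on the log2 scale (adjusted p = 4.63e-05 and 0.000416), from means of 5.97 and 6.67 to background, Chrnb1 changed by -0.50 (adjusted p = 6.79e-05) and Trdn, which encodes triadin, by 1.12 (adjusted p = 0.000411). Of 17 metabolic genes of the fibre, 5 were higher and 0 lower, among them Fabp3, a fatty acid carrier of slow fibres and heart, with 2.34 (standard error 0.32, adjusted p = 0.000202), and Ppargc1a with 1.68 (adjusted p = 0.00133). The rises of Trim63, Smpx, Myoz3 and Trdn lie inside the range of the Y-linked probe sets in this comparison (0.20 to 1.20). Those of Fabp3 and Ppargc1a lie above it.

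Of 13 measured regulators of myogenesis and fusion, 3 were lower in WT 12 h cells and 2 higher, where 20.8% of all genes were lower and 19.6% higher. The lower ones were Mef2c, a factor that binds the MEF2 site, with -4.15 (standard error 0.54, adjusted p = 0.000137), Mef2a with -3.26 (adjusted p = 0.000482) and Myf5 with -1.10 (adjusted p = 0.00102), and the higher ones were Six4 with 1.45 (adjusted p = 0.0019) and Myog with 0.38 (adjusted p = 0.0065). The rise of Myog lies inside the Y-linked range of 0.20 to 1.20, that of Six4 above it. Myod1 and Myog, the factors that turn on fibre genes, read 2.29 to 3.05 and 2.49 to 3.02 over the 17 arrays. Of 14 listed paralogs of fibre genes, 1 stayed under 5 in all arrays, and 4 were lower and 0 higher in WT 12 h cells: Myl12b with -6.21 (standard error 0.34, adjusted p = 5.03e-07), Tmod3 with -3.21 (adjusted p = 2.49e-05), Atp2a2 with -4.01 (adjusted p = 0.021) and Actn1 with -2.53 (adjusted p = 0.0349).

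Of 12 satellite cell markers, 4 were lower in WT 12 h cells and 0 higher, led by Pax7 (-2.27, adjusted p = 1.98e-06) and Chodl (-1.85, adjusted p = 4.8e-05). For this and the following lists, 20.8% of all genes were lower and 19.6% higher in the same comparison. In WT 12 h cells 6 of 12 endothelial, 7 of 11 fibroblast, 6 of 12 macrophage and 2 of 10 neutrophil genes were lower and 0 higher, 1 of 5 erythroid genes was higher and 0 lower, and of 6 Schwann cell genes 1 was higher and 2 lower. The mean level of the macrophage genes was 5.45 to 8.63 in WT uninjured, 3.87 to 4.12 in WT 12 h and 9.45 to 9.72 in WT 48 h arrays, that of the fibroblast genes 7.27 to 8.18, 3.36 to 4.12 and 3.74 to 4.20, and that of the endothelial genes 5.95 to 7.52, 3.71 to 4.82 and 3.37 to 3.80. Their part in the members' changes was not tested.

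The 5 genes most like the mean of the 12 members with a group mean of 5 were Abcg3, Lama4, Cmya5, Nf1 and A930024E05Rik, with r of 0.78, 0.77, 0.76, 0.75 and 0.75 over 17 arrays. Of these Lama4, a laminin of vessel walls and other basement membranes, passed 5 (2.81 to 7.37), and Cmya5, a Z-disc associated protein, stayed between 2.28 and 3.58. The likeness is a description and was not tested.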

How the data were processed

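Per the labels and the study's methods, RNA of syndecan-3 sorted cells was extracted, passed 2 rounds of T7 amplification and was hybridized to Affymetrix arrays. The authors read intensities with GCOS and deposited GCRMA log2 values for 45101 probe sets on 18 arrays. Versions are not given in the sources used here. These values were used as deposited. From the annotation of the array 34958 probe sets have 1 gene symbol, 932 several and 9211 none, and no symbol was updated.

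The 6 groups were fitted in 1 model with limma 3.58.1 in R 4.3.3 (lmFit, contrasts.fit, eBayes) over 17 arrays, with 11 residual degrees of freedom, and p-values were adjusted by Benjamini and Hochberg's method across every probe set. Calls needed an adjusted p under 0.05. The study's text gives no number for the WT uninjured array it set aside, which was taken to be replicate 3 because that array stands apart from its group. The script was tested on simulated data. Members with a group mean of at least 5, or a call with a log2 change of at least 1, are described in full, and lists are named by up to 4 called genes with the smallest adjusted p in WT 12 h cells. The members and lists were chosen with earlier results of these data known. Precision rests on how many arrays a group has. Each result was recomputed with all 18 arrays, within the groups compared, with trend and robust eBayes, a plain analysis of variance, a further quantile normalization, a shift to the same 75th percentile, a mean of at least 4, the replicate number as a block, other probe sets, and each array left out.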

Additional observations from a re-analysis of the deposited data

Results flagged for a closer look

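Myh8 showed a 12 h change that differed between the genotypes by -1.16 on the log2 scale (Sdc4-/- minus WT, limma adjusted p = 0.0115), with values of 3.81, 4.34 and 4.47 in WT 12 h and 2.99, 2.89 and 3.35 in Sdc4-/- 12 h arrays. With all 18 arrays it was -0.86 (adjusted p = 0.237). Myoz1 showed a difference of 1.15 in the same contrast (adjusted p = 0.00393), and the mean of its 2 probe sets gave 0.44 (adjusted p = 0.247). Tcap read 4.34 in the left-out WT uninjured replicate 3, against 2.90 and 3.04 in the 2 WT uninjured arrays fitted and 4.08, 5.32 and 2.81 in the WT 12 h arrays.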

How the results depend on the processing

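Of 2814 results of single described members under the alternatives, 2723 kept their side of the threshold, 71 no longer passed, 19 newly passed and 1 turned round: Myoz1 in WT 12 h minus WT uninjured cells was 0.15 with the mean of its probe sets, against -0.50. A change of direction was counted only where the main or the alternative result passed. The 2723 include results that passed in neither, whose direction was not compared. The count of called members in WT 12 h cells, 13, was 5 with all 18 arrays, 4 with only the groups compared, 7 after a further quantile normalization and 5 among members averaging 4 or more, and 6 to 15 with each array left out, with 7 without WT uninjured replicate 1 and 6 without replicate 2. The count of 2 in WT 48 h cells was 0 in these same 4 settings and 11 after the shift to the same 75th percentile, and 0 to 3 with each array left out, falling to 0 when WT 48 h replicate 1, WT 48 h replicate 2 or WT uninjured replicate 2 was dropped. The count of 1 in Sdc4-/- 12 h cells was 0 with only the groups compared and over averages of 4 or more, 2 after quantile normalization and 11 after the shift, and 1 to 2 with each array left out, 2 without Sdc4-/- uninjured replicate 3. The count of 0 in Sdc4-/- 48 h cells was 0 to 1 with each array left out, 1 without Sdc4-/- uninjured replicate 3. The count of 2 between uninjured genotypes was 0 with all 18 arrays, only the groups compared, quantile normalization and averages of 4 or more, 1 with trend and robust, the plain analysis of variance and the mean of probe sets, and 0 to 2 with each array left out, 0 without Sdc4-/- uninjured replicate 1 or 2. The count of 2 for the 12 h difference was 1 with all 18 arrays, 4 after quantile normalization, 0 over averages of 4 or more and 2 to 4 with each array left out, 4 without WT uninjured replicate 1, WT 12 h replicate 1 or WT 48 h replicate 2. The count of 0 for the 48 h difference was 2 with only the groups compared and 0 to 1 with each array left out, 1 without WT uninjured replicate 1 or Sdc4-/- 12 h replicate 1. Where an array was left out of the WT uninjured group, the remaining array was taken to have the spread of the other groups. The cause of these moves was not tested.

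With the replicate number as a block the WT 12 h count was 11 and that between uninjured genotypes 1, without Myom1 (-1.14, adjusted p = 0.057). The numbers do not pair the samples: deviations of same-numbered arrays correlated by -0.13 to 0.17.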
